A study of Mus musculus with 24 samples.

Results

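The ephrin, Slit-Robo and netrin guidance genes were the 38 of 22889 entries of the deposited RPKM table whose symbols name an Eph receptor, an ephrin, a Slit, a Robo, an Unc5 receptor or a netrin, together with Dcc and Neo1. They comprised 9 EphA receptors, 5 EphB receptors, 5 ephrin-A and 3 ephrin-B ligands, 3 Slits, 4 Robo receptors, 3 netrins (Ntn1, Ntn4 and Ntn5) and 6 netrin receptors. The membership rule reads symbols and uses no expression value. RPKM, reads per kilobase of transcript and unit of mapped reads, scales a level by transcript length and by sequencing depth.

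Growing motor axons read these proteins as attractive or repellent cues. Ephrins sit in the membrane of one cell and bind Eph receptors on another, the A class mostly with EphA and the B class mostly with EphB receptors, and the contact commonly repels the growing axon. Slits are secreted repellents read by Robo receptors, while netrins attract axons through Dcc and Neo1 and repel them through Unc5 receptors. In the ventral neural tube, netrin 1 and Slits come from the floor plate, and motor axons avoid the midline.

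Bulk RNA sequencing covered 24 samples, 6 in each of 4 groups. Oculomotor cultures came from Islet1-GFP/NesEPhox2A mouse embryonic stem cells, in which a nestin enhancer active in neural progenitors drives Phox2a, and were patterned for 5 days with 250 nM of the Smoothened agonist SAG and 100 ng/ml FGF8. Spinal cultures came from an Hb9-GFP line, for which no such transgene is named, and were patterned for 5 days with 500 nM SAG and 100 nM retinoic acid. Each was sorted into GFP-positive and GFP-negative fractions, and no compound or allele beyond these is named in the labels. The line, the reporter gene and the patterning factors changed together between the cultures, so their parts cannot be told apart. GFP-positive means Islet1 reporter activity in one culture and Hb9 reporter activity in the other.

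Motor neuron genes, among them those of the Islet1 and Hb9 sorting reporters, separated the oculomotor fractions, while the spinal fractions overlapped. In spinal replicate 4 their sum was higher in the GFP-negative (89.9) than in the GFP-positive fraction (61.4). The summed RPKM of 10 motor neuron markers was 379 to 822 in oculomotor GFP-positive against 10.2 to 37.2 in oculomotor GFP-negative samples, and 61.4 to 380 against 7.90 to 89.9 in the spinal fractions. The oculomotor GFP-negative samples had Chat at 0 in all 6. The spinal library labelled GFP-positive replicate 4 stood apart, with a summed RPKM of 80.4 over 8 pan-neuronal markers where the other 5 of its group had 440.0 to 1859 and its own GFP-negative fraction had 96.3. GFP-negative replicate 4 of that culture had 69.4 RPKM of Mnx1, the gene also called Hb9, against at most 4.72 in the other 5, and in spinal GFP-negative replicate 2 the 3 highest genes took 68.8% of the summed RPKM. Estimated depth was 752529 to 4642207 reads in replicates 1 to 4 and 4822576 to 7675428 in replicates 5 and 6. In sorted bulk samples, fewer cells that use a gene and less RNA of it per cell cannot be told apart.

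**Figure D1:**
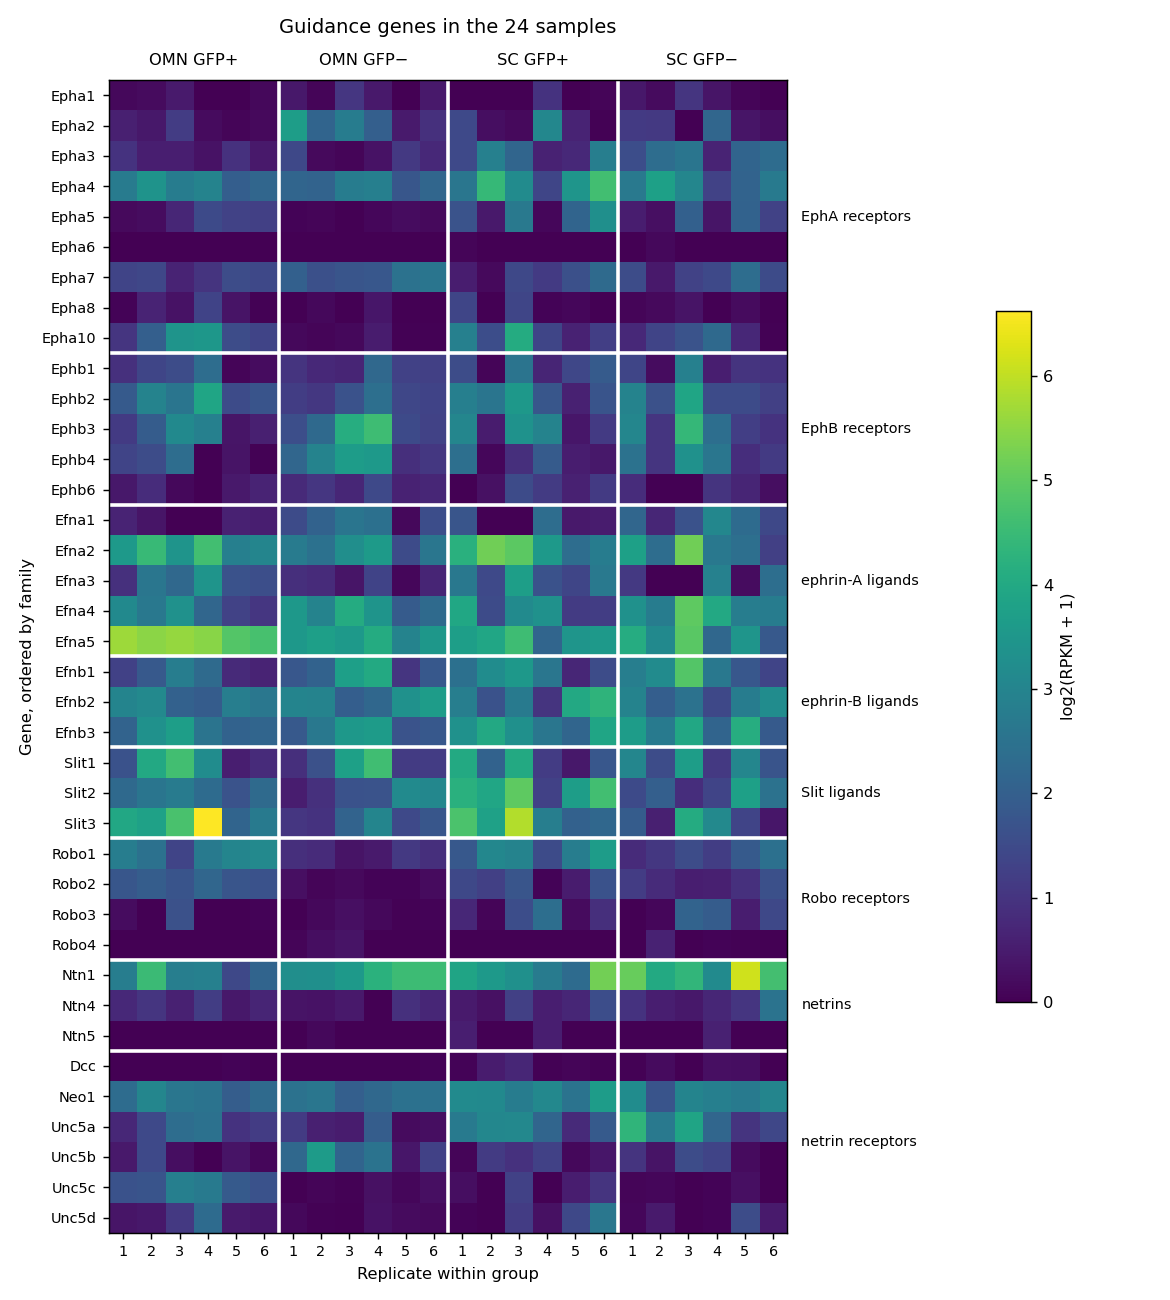
Heat map of log2(RPKM + 1) for the 38 guidance genes (rows, ordered by family) in the 24 samples (columns, replicates 1 to 6 of the oculomotor, OMN, and spinal, SC, fractions). Efna5 is bright across the 6 oculomotor GFP-positive samples, while Epha6, Robo4, Ntn5 and Dcc stay near 0 in every group.

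The clearest differences lay between the oculomotor fractions. Robo1, Robo2, Unc5c, Epha10 and Efna5 were higher in the GFP-positive cells and Unc5b was lower, which is 6 of 38 members at an adjusted p under 0.05 (limma on log2(RPKM + 1), Benjamini-Hochberg over all 22179 genes tested). Over all genes 6.15% were called, 3.81% as higher and 2.34% as lower in the GFP-positive fraction. No member was called between the GFP-positive fractions of the cultures, between the GFP-negative fractions, or between the spinal fractions. The step between fractions differed between the cultures for 1 member, Unc5c. Comparisons that use the same group share its samples and are not independent of each other.

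For 4 of these 6 genes the 250 bases before a RefSeq start are shown, since these genes moved in 1 comparison together. The windows of Unc5c and Epha10 overlap annotated exons and are not printed. Each reads 5′ to 3′ on the strand of the gene, in the GRCm38.p6 build, and capitals mark TAATTA (a homeodomain core), CAGCTG (an E-box), GGGCGG (a GC box) or TATAAA (known as the TATA box) wherever found on either strand, so that CCGCCC stands for a GC box on the other strand. No matches overlap each other. Robo2 has 3 RefSeq starts, and the one at the annotated start of the gene was taken. The Robo1 start lies inside the annotated gene.
Robo2 (chr16:74411826-74412075, minus strand): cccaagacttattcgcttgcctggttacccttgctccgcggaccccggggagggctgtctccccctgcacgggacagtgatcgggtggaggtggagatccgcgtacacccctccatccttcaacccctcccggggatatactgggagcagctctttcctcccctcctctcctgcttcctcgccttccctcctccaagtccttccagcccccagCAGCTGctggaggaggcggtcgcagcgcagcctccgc
Robo1 (chr16:72662899-72663148, plus strand): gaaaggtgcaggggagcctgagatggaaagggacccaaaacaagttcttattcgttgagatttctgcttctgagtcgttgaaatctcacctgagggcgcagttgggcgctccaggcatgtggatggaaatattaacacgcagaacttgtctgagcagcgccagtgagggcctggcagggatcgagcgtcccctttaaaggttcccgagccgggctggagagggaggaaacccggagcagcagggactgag
Efna5 (chr17:62881318-62881567, minus strand): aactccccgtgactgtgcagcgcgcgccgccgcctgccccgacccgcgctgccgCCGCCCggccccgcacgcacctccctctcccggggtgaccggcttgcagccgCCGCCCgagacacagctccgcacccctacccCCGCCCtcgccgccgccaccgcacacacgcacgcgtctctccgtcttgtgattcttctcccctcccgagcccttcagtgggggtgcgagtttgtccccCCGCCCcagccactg
Unc5b (chr10:60831582-60831831, minus strand): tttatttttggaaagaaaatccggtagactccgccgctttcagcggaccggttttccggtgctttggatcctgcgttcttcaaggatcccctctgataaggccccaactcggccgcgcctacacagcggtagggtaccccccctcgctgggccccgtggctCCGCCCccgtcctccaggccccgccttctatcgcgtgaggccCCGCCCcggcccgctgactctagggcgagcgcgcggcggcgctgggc
GGGCGG occurred 4 times in the Efna5 window and 2 times in that of Unc5b, and was not found in those of Robo1 and Robo2. It is common, since 32.7% of 32851 windows of the same length held it, as did 68.4% of the 38 windows of the 33 members in the RefSeq table. The E-box was found in the Robo2 window and in 13% of all windows. The homeodomain core and the TATA box were in none of the 4 windows shown, and 4.84% and 12.4% of all windows held them. The Efna5 window had 32 CpG dinucleotides and that of Robo1 had 11, against a median of 6 over all windows and of 17.5 over the 38 member windows. These are matches of letters and say nothing of binding.

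Among the Slit receptors, Robo2 (ENSMUSG00000052516.19, chr16:73891839-74411825) was higher in oculomotor GFP-positive cells. It stood at 2.21 RPKM at the lowest, 2.38 at the median and 3.60 at the highest in GFP-positive samples, and at 0.0449, 0.0918 and 0.209 in GFP-negative samples. The groups did not overlap. The difference was 1.71 ± 0.27 (SE, n = 6 and 6) on the log2(RPKM + 1) scale with an adjusted p of 0.000206, and the GFP-positive sample was higher in 6 of 6 same-numbered sets. In the spinal cultures Robo2 ran from 0.0465 to 2.34 RPKM (median 1.57) in GFP-positive and from 0.483 to 2.07 RPKM (median 0.822) in GFP-negative samples, so these fractions overlapped.

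Robo1 (ENSMUSG00000022883.11, chr16:72308306-73046095), the most abundant Robo receptor by mean RPKM in each group, was likewise higher in oculomotor GFP-positive cells. Oculomotor GFP-positive samples held 1.55, 5.79 and 7.73 RPKM as lowest, median and highest, and GFP-negative samples held 0.277, 0.820 and 1.15, with no overlap. The difference was 1.82 ± 0.37 (adjusted p = 0.00328). In the spinal cultures the same 3 values were 1.86, 6.4 and 11.7 RPKM in GFP-positive and 0.761, 1.62 and 4.44 in GFP-negative samples. There the difference of 1.15 ± 0.37 missed the threshold (adjusted p = 0.165), although GFP-positive was higher in 6 of 6 sets. With a block for the same-numbered fractions of a culture it passed (adjusted p = 0.0245), as the only member among 2.93% of all genes called in that fit.

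Robo3, which in commissural axons lowers the response to Slit before the midline, reached above 1 RPKM in 1 oculomotor sample. In the spinal cultures Robo3 ran from 0.0628 to 4.26 RPKM in GFP-positive and from 0 to 3.30 in GFP-negative samples. Robo4, the vascular Robo, was at 0 in all 12 GFP-positive samples. Summed over the family, Robo receptors had 5.98 to 9.98 RPKM in oculomotor GFP-positive and 0.545 to 1.23 in oculomotor GFP-negative samples. Spinal samples had 4.95 to 14.7 and 2.02 to 8.19. The sum was higher in the GFP-positive fraction in 6 of 6 sets of each culture.

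Unc5c (ENSMUSG00000059921.15, chr3:141465216-141834924), a receptor for repulsion by netrin, had the lowest adjusted p of the members. Oculomotor GFP-positive samples held 2.18, 2.5 and 6.25 RPKM as lowest, median and highest, and GFP-negative samples 0.0180, 0.0740 and 0.232. No values overlapped, and the difference was 1.95 ± 0.24 (adjusted p = 1.24e-05). Spinal GFP-positive samples ran from 0 to 1.45 RPKM (median 0.321) and spinal GFP-negative samples from 0 to 0.2 (median 0.0542). The step between fractions was 1.53 ± 0.34 larger in the oculomotor than in the spinal cultures (adjusted p = 0.0465, against 0.32% of all genes called for this interaction). That call held in 5 of 24 fits that left out 1 sample, and without the 3 spinal samples named above its adjusted p was 0.0694.

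Unc5b (ENSMUSG00000020099.8, chr10:60762593-60831581) went the other way. It stood at 0 to 1.74 RPKM (median 0.231) in oculomotor GFP-positive and at 0.331 to 11.5 RPKM (median 3.55) in GFP-negative samples. The ranges overlapped, but GFP-negative was higher in 6 of 6 sets, and the difference was -1.60 ± 0.42 (adjusted p = 0.0227). Without oculomotor GFP-positive replicate 4 or 6, or GFP-negative replicate 2, the adjusted p was 0.0555, 0.0509 and 0.0616. Oculomotor GFP-negative samples also held more of 6 endoderm and pluripotency markers, at a summed 50.3 to 208 RPKM against 0.315 to 7.16 in GFP-positive samples, while 8 progenitor markers summed to 281 to 452 against 110 to 467 RPKM. Their part in the Unc5b difference was not tested.

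**Figure D2:**
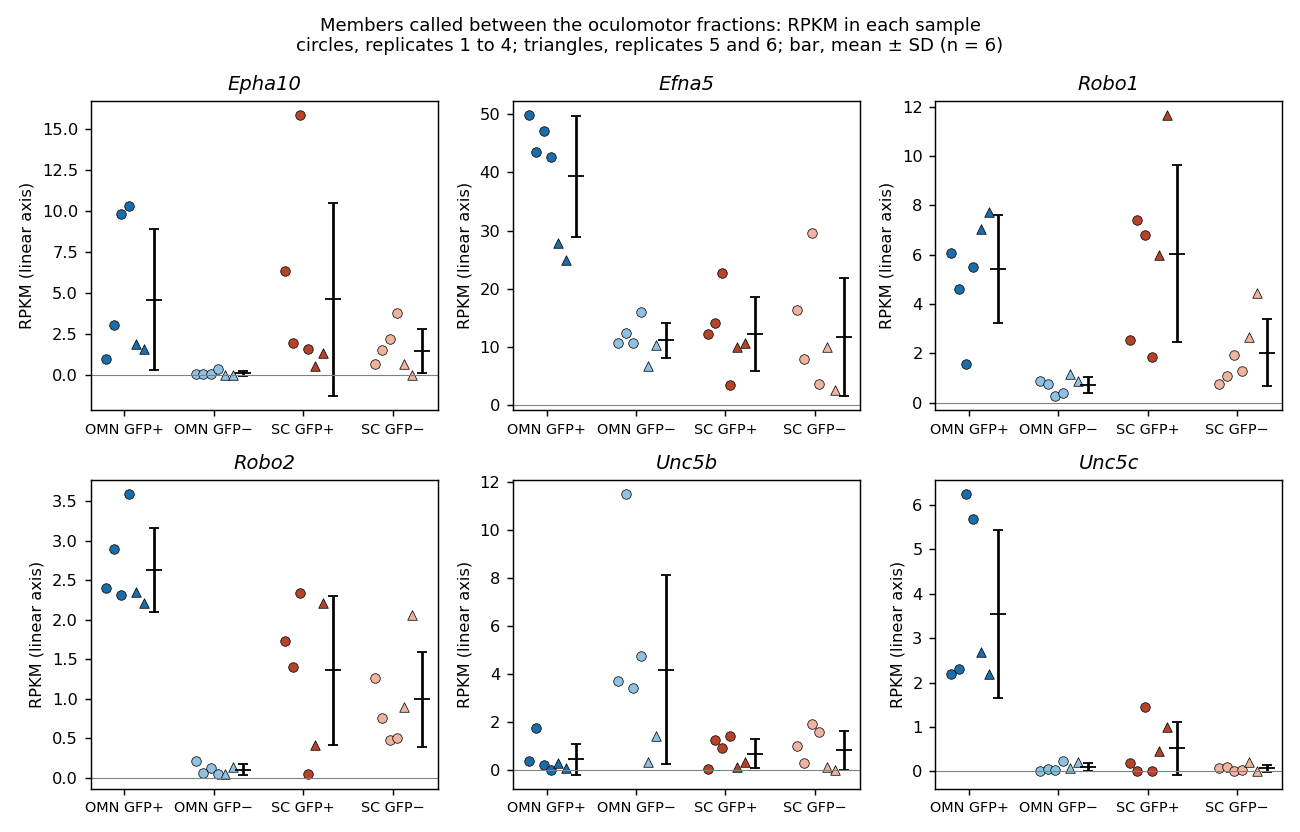
RPKM (vertical axes, linear) of the 6 members called between the oculomotor fractions, in each sample of the 4 groups, with mean ± SD of 6 samples as black bars. Robo2, Robo1, Unc5c, Epha10 and Efna5 lie higher in oculomotor (OMN) GFP-positive than in GFP-negative samples without overlap, and Unc5b lies lower with overlap.

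Unc5d had 0.304 to 3.99 RPKM in oculomotor GFP-positive and 0 to 0.241 in GFP-negative samples, which did not overlap, yet the difference of 0.71 ± 0.39 did not pass (adjusted p = 0.36). Unc5a, a further repulsive netrin receptor, ran from 0.149 to 2.85 RPKM in oculomotor and from 0.987 to 19.1 RPKM in spinal GFP-negative samples. The difference of -1.80 ± 0.53 did not pass (adjusted p = 0.118). Of the attractive receptors, Neo1 was at 2.86 to 7.23 RPKM (median 4.37) in oculomotor GFP-positive and 3.00 to 5.08 (median 4.58) in GFP-negative samples. In spinal samples it was at 4.78 to 11.7 (median 7.67) and 2.30 to 8.33 (median 6.66). Dcc was at 0 in 10 of 12 oculomotor samples and at most 0.645 RPKM in spinal ones. Neo1 differed by -0.61 ± 0.29 between the GFP-positive fractions, which overlapped (adjusted p = 0.495).

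Ntn1, the floor plate netrin, held 82.9% or more of the summed netrin RPKM in every sample. It was at 1.70 to 22 RPKM (median 6.07) in oculomotor GFP-positive and at 8.62 to 22.4 (median 14.5) in GFP-negative samples. In spinal samples it was at 4.01 to 36.0 (median 9.92) and 8.02 to 70.3 (median 21.9). GFP-positive was lower in 5 of 6 sets of each culture, by -1.14 ± 0.51 and -1.07 ± 0.51, and neither passed (adjusted p = 0.228 and 0.473). The highest Ntn1 value of each fraction but oculomotor GFP-negative fell in the sample with the highest sum of 6 floor plate markers. These were oculomotor GFP-positive replicate 2 with 47.8, spinal GFP-positive replicate 6 with 116 and spinal GFP-negative replicate 5 with 218 RPKM, and the part of floor plate cells in the Ntn1 levels was not tested. Ntn4 stayed at or below 4.71 RPKM and Ntn5 at or below 0.531.

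Slit3 was the Slit of highest mean in both GFP-positive groups, with a wide spread. It was the highest Slit in 5 of 6 oculomotor and 3 of 6 spinal GFP-positive samples. Its lowest, median and highest RPKM were 3.43, 13.8 and 97.9 in oculomotor GFP-positive against 0.966, 2.07 and 7.09 in GFP-negative samples. GFP-positive was higher in 6 of 6 sets, with a difference of 2.27 ± 0.74 that missed the threshold (adjusted p = 0.0733) and passed with the within-culture block (0.00434). Spinal samples ran from 3.19 to 57.7 RPKM in GFP-positive and from 0.325 to 16.0 in GFP-negative fractions, a difference of 1.68 ± 0.74 (adjusted p = 0.417).

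The Slit2 calls turned on 1 spinal library. Spinal GFP-positive samples held 11.8 to 30.7 RPKM except replicate 4, which held 1.43, while oculomotor GFP-positive samples held 2.24 to 5.72 and spinal GFP-negative samples 0.836 to 12.5. With all samples the difference was -1.47 ± 0.52 between the GFP-positive fractions (adjusted p = 0.312) and 1.79 ± 0.56 between the spinal fractions (0.142). Without spinal GFP-positive replicate 4 both passed, at -1.97 (adjusted p = 0.0118) and 2.29 (0.00891).

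Slit1 was the Slit of highest mean in both GFP-negative groups. Its lowest, median and highest RPKM were 0.873, 1.69 and 23.2 in oculomotor and 1.15, 4.75 and 11.9 in spinal GFP-negative samples. In GFP-positive samples they were 0.476, 5.27 and 23.6 in the oculomotor and 0.350, 2.87 and 15.2 in the spinal cultures. The groups overlapped in every comparison, and the fractions differed by 0.28 ± 0.80 in the oculomotor (adjusted p = 0.982) and -0.10 ± 0.80 in the spinal cultures (0.994).

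Efna5 (ENSMUSG00000048915.12, chr17:62604184-62881317), a ligand of EphA receptors, was the most abundant of the 38 genes in oculomotor GFP-positive cells, with 24.9, 43.1 and 49.9 RPKM as lowest, median and highest. Oculomotor GFP-negative samples held 6.79, 10.7 and 16.0, spinal GFP-positive samples 3.49, 11.5 and 22.8, and spinal GFP-negative samples 2.59, 8.97 and 29.7 RPKM. The oculomotor GFP-positive group lay above the oculomotor GFP-negative and spinal GFP-positive groups without overlap, and overlapped spinal GFP-negative replicate 3. Against the oculomotor GFP-negative fraction the difference was 1.72 ± 0.42 (3.52-fold in mean RPKM, adjusted p = 0.0144). Against the spinal GFP-positive fraction it was 1.72 ± 0.36 (3.22-fold) and narrowly missed the threshold (adjusted p = 0.0514). Without spinal GFP-positive replicate 4 it was 1.44, with an adjusted p of 0.0453.

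Other ephrins were spread more evenly. Efna2 was the ephrin-A of highest mean in spinal GFP-positive cells at 4.15 to 35.3 RPKM (median 14.1), against 1.39 to 35.5 (median 4.85) in spinal GFP-negative samples. It held 6.24 to 23.6 (median 10.4) and 1.85 to 11.1 RPKM (median 5.44) in the oculomotor fractions, a difference of 0.96 ± 0.57 (adjusted p = 0.418). Efna4 had the highest mean in spinal GFP-negative cells at 5.91 to 30.7 RPKM (median 7.64), against 1.21 to 14.5 (median 4.92) in spinal GFP-positive samples, a difference of -1.07 ± 0.55 (adjusted p = 0.515). Both ligands overlapped between all groups compared. Efna3 was higher in oculomotor GFP-positive samples in 6 of 6 sets, by 1.37 ± 0.53 (adjusted p = 0.139). Efna1 differed by -1.36 ± 0.45 between the oculomotor (adjusted p = 0.0805) and by -1.05 ± 0.45 between the spinal fractions (0.398), and passed in the oculomotor cultures with the within-culture block (0.0191).

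Of the ephrin-B ligands, which are themselves transmembrane proteins, Efnb3 had the highest mean in 3 of the 4 groups and Efnb2 in oculomotor GFP-negative cells. Efnb3 stood at 3.25, 4.17 and 12.2 RPKM as lowest, median and highest in oculomotor GFP-positive and at 2.21, 3.95 and 11.4 in GFP-negative samples. The same values were 3.48, 9.19 and 15.0 in spinal GFP-positive and 2.66, 8.64 and 16.6 in spinal GFP-negative samples. The groups overlapped in each comparison, and the GFP-positive fractions of the cultures differed by -0.56 ± 0.41 (adjusted p = 0.675). Efnb2 stood at 2.78, 5.70 and 7.68 RPKM in oculomotor GFP-positive and at 2.95, 6.88 and 11.7 in GFP-negative samples, and at 1.01, 5.78 and 18.7 and 1.72, 5.29 and 8.29 in the spinal fractions. Its oculomotor fractions overlapped and differed by -0.27 ± 0.47 (adjusted p = 0.91). Efnb1 ran from 0.587 to 27.7 RPKM over all samples, and its difference of -0.80 between the oculomotor fractions passed with the within-culture block alone (adjusted p = 0.576 without and 0.0475 with the block).

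Epha10 (ENSMUSG00000028876.7, chr4:124880899-124917800), an Eph receptor whose kinase domain is thought to be inactive, was at 1.02, 2.48 and 10.3 RPKM as lowest, median and highest in oculomotor GFP-positive samples. GFP-negative samples held 0.0224, 0.0804 and 0.412 RPKM, which rest on 1 to 4 reads each. The groups did not overlap, and the difference was 1.99 ± 0.52 (adjusted p = 0.0223). Without oculomotor GFP-positive replicate 3 or 4, which held 9.82 and 10.3 RPKM, the adjusted p was 0.0599 and 0.0639. Spinal GFP-positive samples ran from 0.557 to 15.9 and GFP-negative samples from 0.0196 to 3.79 RPKM, with overlap.

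Epha4, through which ephrin-A repels a class of limb motor axons, was the EphA receptor of highest mean in 3 of the 4 groups. It held 2.97 to 9.64 RPKM in oculomotor GFP-positive, 2.45 to 6.26 in oculomotor GFP-negative, 1.59 to 23.6 in spinal GFP-positive and 1.49 to 12.7 in spinal GFP-negative samples. No comparison of Epha4 passed, and the GFP-positive fractions differed by -0.60 ± 0.51 (adjusted p = 0.717). Epha3 was at 0.250 to 0.952 RPKM in oculomotor GFP-positive and at 0.543 to 6.46 in spinal GFP-positive samples, a difference of -1.16 ± 0.43 (adjusted p = 0.338). Between the GFP-negative fractions it was -1.29 ± 0.40 (0.152), and it passed without spinal GFP-negative replicate 4 (-1.54, adjusted p = 0.0394).

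Epha5 and Robo2 were lower in all 6 oculomotor than in all 6 spinal GFP-negative samples. For Epha5 the ranges were 0 to 0.161 and 0.212 to 3.21 RPKM (difference -0.99 ± 0.45, adjusted p = 0.408), and for Robo2 the difference was -0.80 ± 0.27 (0.186). Epha7 was at 0.593 to 1.90 RPKM in oculomotor GFP-positive and 2.09 to 4.96 in GFP-negative samples, without overlap, and differed by -0.81 ± 0.35 (adjusted p = 0.2, and 0.0378 with the within-culture block). Epha2 had 0.067 to 1.25 RPKM against 0.399 to 11.9 in the oculomotor fractions (-1.56 ± 0.53, adjusted p = 0.0832, and 0.00451 with the block). The highest Epha2 values, in oculomotor GFP-negative replicate 1 and, at 7.45, in spinal GFP-positive replicate 4, came with summed endoderm and pluripotency markers of 208 and 240 RPKM. The highest marker sum, 293 RPKM in spinal GFP-negative replicate 4, came with 3.52 RPKM of Epha2. Oculomotor GFP-negative replicate 3 held more Epha2, 5.90 RPKM, at a marker sum of 77.3. The part of these markers in the Epha2 levels was not tested. Epha1 and Epha8 did not exceed 1.59 RPKM, and Epha6 was above 0 in 2 samples.

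No EphB receptor was called in the main fits. With the within-culture block 3 passed between the oculomotor fractions, where 16.4% of all genes did. Ephb4 also passed there in the fit with sample quality weights and no block (-1.50, adjusted p = 0.0278). Ephb2 held 1.84 to 13.8 RPKM in oculomotor GFP-positive and 1.10 to 4.35 in GFP-negative samples, a difference of 0.90 ± 0.51 (adjusted p = 0.387, and 0.0411 with the block). Ephb3, which held 0.299 to 7.90 and 1.46 to 22.7 RPKM, was highest in replicates 3 and 4 of both oculomotor fractions, and differed by -0.88 ± 0.73 (adjusted p = 0.636, and 0.0260 with the block). Ephb4 ran from 0 to 4.13 and from 0.849 to 11.7 RPKM, a difference of -1.45 ± 0.58 (adjusted p = 0.163, and 0.0191 with the block). In spinal samples Ephb2 held 0.526 to 10.6 RPKM in GFP-positive and 1.39 to 14.0 in GFP-negative fractions, and Ephb3 held 0.330 to 9.37 and 0.964 to 20.5, with overlap. Ephb1 stayed at or below 6.45 RPKM over all samples, and Ephb6 at or below 1.84.

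**Figure D3:**
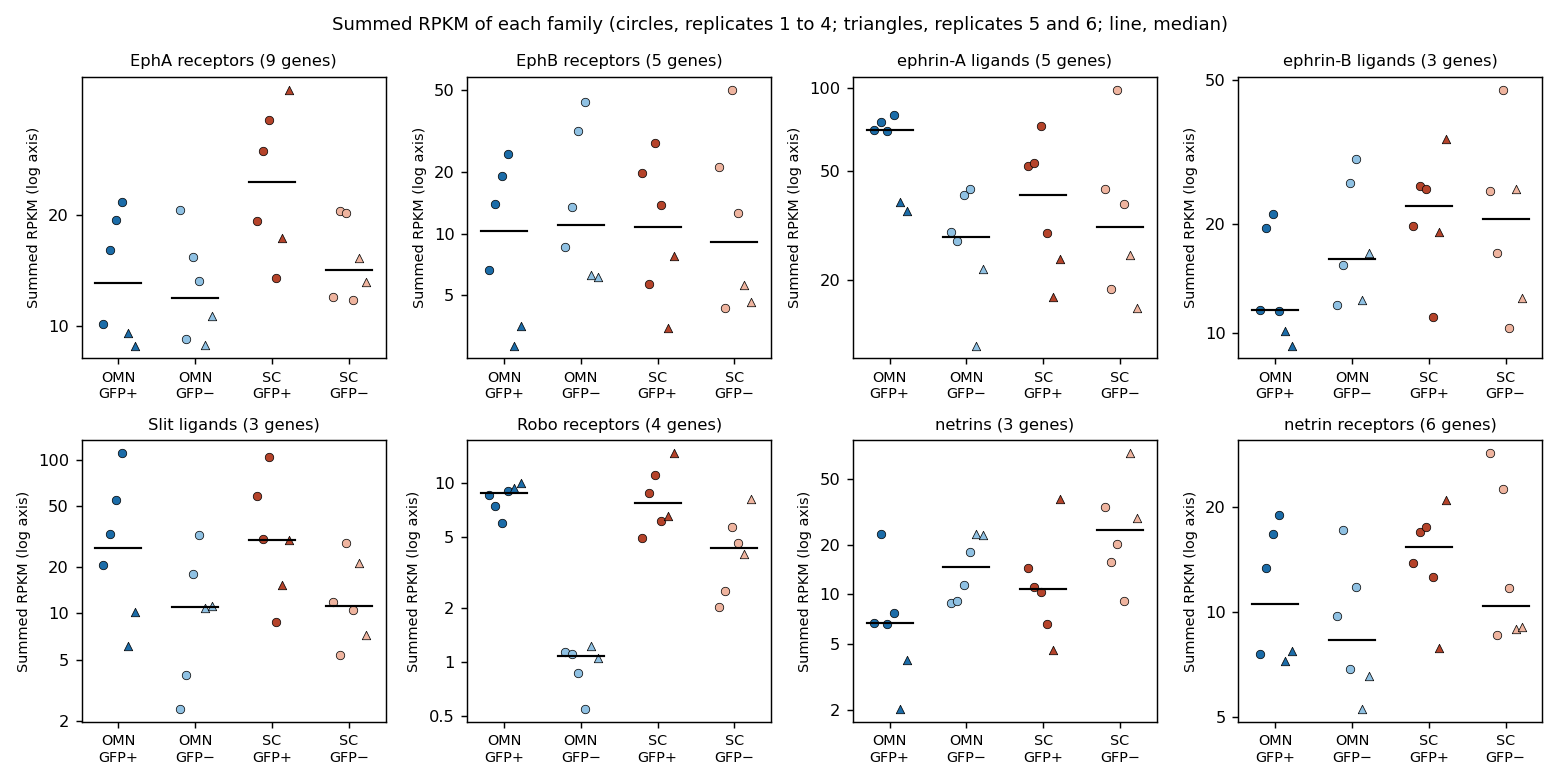
Summed RPKM (vertical axes, logarithmic) of each family in each sample, with the median of each group as a line and replicates 5 and 6 as triangles. The Robo sum of oculomotor (OMN) GFP-negative samples, 0.545 to 1.23, lies below that of every other group, and every other family sum overlaps between the fractions of each culture.

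Ligand and receptor sums compared per length gave a further view of the same values. Ephrin-A ligands exceeded EphA receptors in every oculomotor sample, by a ratio of summed RPKM of 3.61 to 6.97 in GFP-positive and 1.30 to 3.25 in GFP-negative samples. In spinal samples the ratio was 0.542 to 2.70 and 0.908 to 4.84. The lowest oculomotor GFP-positive ratio thus lay above every spinal GFP-positive ratio. The ratio of Slits to Robos was 2.09 to 59.5 in oculomotor GFP-negative and 0.653 to 12.1 in GFP-positive samples, where it was above 1 in 5 of 6. These ratios describe transcripts and were not tested.

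Counts over all members complete the picture. Those at an unadjusted p under 0.05, here and below, have no share of all genes beside them and were not compared with one. Between the GFP-positive fractions 0 of 36 members tested passed, with 4 at an unadjusted p under 0.05, and 0.603% of all genes passed. Efna5 and Unc5c were the 2 members that did not overlap there, both higher in the oculomotor cells, against 1.43% of all genes without overlap. Unc5c held 2.18 to 6.25 against 0 to 1.45 RPKM, a difference of 1.58 ± 0.36 (adjusted p = 0.0775), and its adjusted p was 0.000371 when all 24 samples shared 1 estimate of spread. Between the GFP-negative fractions 0 of 38 passed, with 7 at an unadjusted p under 0.05, and 0.96% of all genes passed. Here 2 members did not overlap, against 1.27% of all genes.

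Between the oculomotor fractions 13 of 38 members had an unadjusted p under 0.05. Of the 38, 7 did not overlap, 6 of them higher and Epha7 lower in GFP-positive samples, against 6.52% of all genes without overlap. Leaving out the 3 spinal samples gave 8 called members instead of 6. With the within-culture block 14 members passed, 7 in each direction, where 16.4% of all genes did, 8.22% as higher and 8.21% as lower. The added ones were Slit3 and Ephb2 as higher, and Epha2, Epha7, Ephb3, Ephb4, Efna1 and Efnb1 as lower. Between the spinal fractions 0 of 38 passed, with 6 at an unadjusted p under 0.05, and no member separated the groups, where 1.23% and 0.469% of all genes did. For the interaction 6 members had an unadjusted p under 0.05, and with the block 2 passed, Unc5c and Robo2 (adjusted p = 0.0318 and 0.0254), where 2.04% of all genes did.

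**Figure D4:**
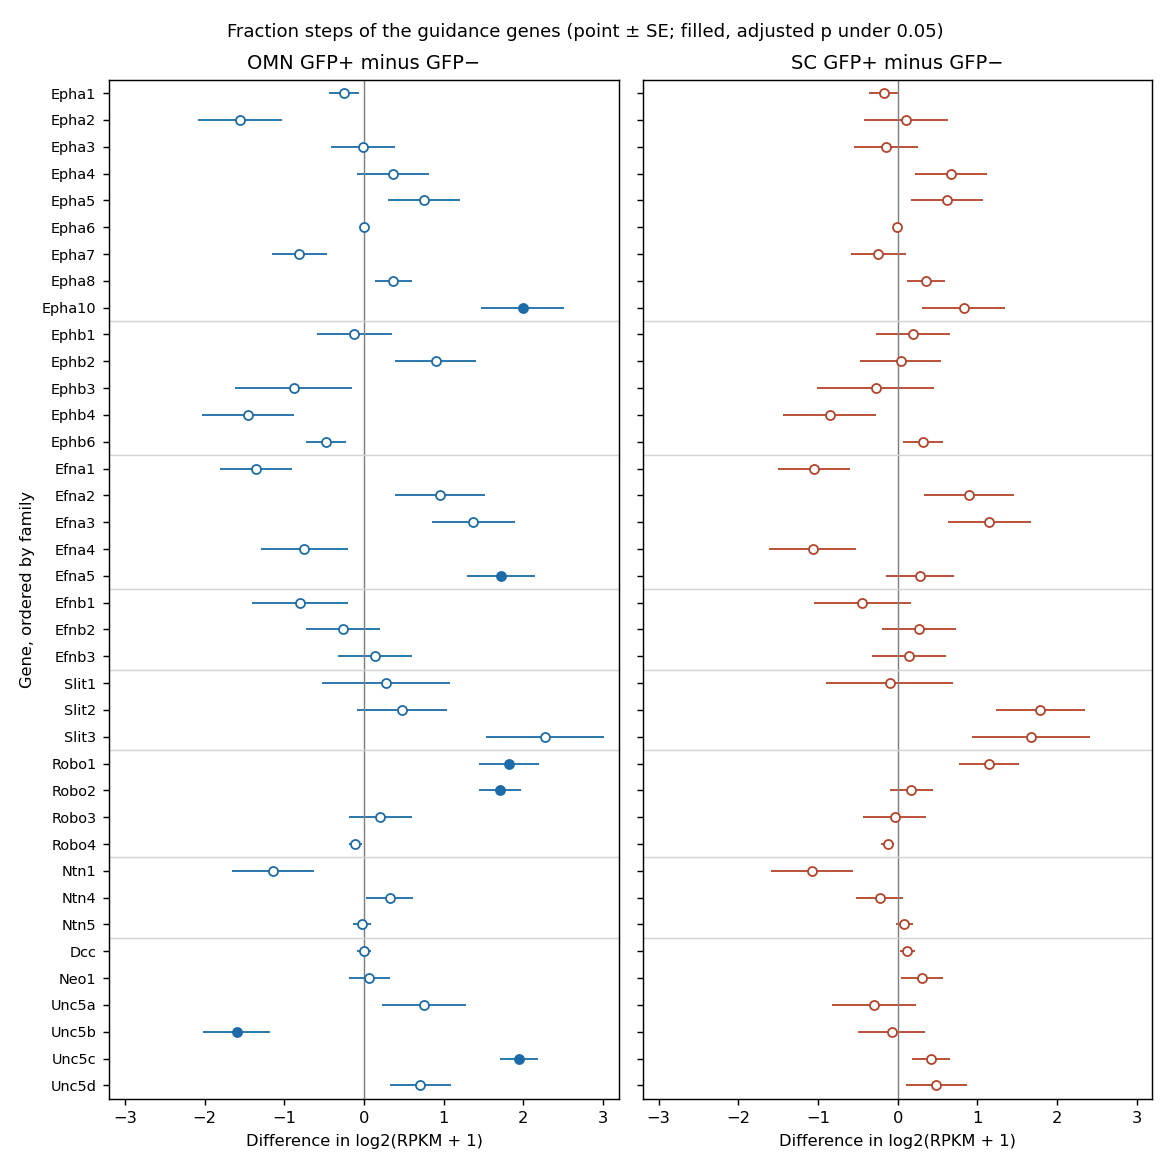
Difference in log2(RPKM + 1) between GFP-positive and GFP-negative samples (horizontal axes, point ± SE) for the 38 members in the oculomotor (OMN, left) and spinal (SC, right) cultures, filled where the adjusted p was under 0.05. The 6 filled points are Epha10, Efna5, Robo1, Robo2, Unc5c and Unc5b on the left, and the spinal side has none.

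For the genes called between the oculomotor fractions, both replicate sets of unequal depth had to give the same direction, since every same-numbered set did. The shared direction is therefore no separate support, and only the sizes of these differences could vary. In replicates 1 to 4 and in replicates 5 and 6 they were 1.77 and 1.59 for Robo2, 1.70 and 2.06 for Robo1, and 2.13 and 1.58 for Unc5c. They were 2.28 and 1.42 for Epha10, 1.81 and 1.54 for Efna5, and -2.09 and -0.60 for Unc5b. Levels themselves shifted between the sets. In oculomotor GFP-positive samples 13 of 38 members were lower in both replicates 5 and 6 than in all of replicates 1 to 4 (19.5% of all genes) and 2 were higher (6.52%). The counts were 10 (21.5%) and 7 (9.77%) in oculomotor GFP-negative, 7 (12.6%) and 3 (7.79%) in spinal GFP-positive, and 5 (10.5%) and 3 (7.12%) in spinal GFP-negative samples. Efna4, Efnb1, Epha10 and Unc5a were lower in replicates 5 and 6 in 3 of the groups, and Robo1 and Epha7 were higher in 3.

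Of 38 listed partners and signaling molecules of these pathways, 10 rose and none fell between the oculomotor fractions, where 3.81% of all genes rose and 2.34% fell. They were Draxin (2.53 ± 0.41), a netrin antagonist, Dscam (1.15 ± 0.27), a netrin co-receptor, Flrt1 (1.40 ± 0.28), Rgmb (2.49 ± 0.29), a ligand of Neo1, and Nell2 (2.42 ± 0.64), a ligand of Robo3. Ret (2.66 ± 0.50) and Gfra1 (3.29 ± 0.33) form the GDNF receptor, which acts with ephrin-A reverse signaling in motor axons, and Vav3 (1.73 ± 0.42), Fyn (1.5 ± 0.42) and Evl (1.43 ± 0.37) act inside the cell. Their adjusted p values ran from 6.18e-07 to 0.0307. Rgmb (1.67 ± 0.31, adjusted p = 0.0298) and Gfra1 (1.75 ± 0.36, adjusted p = 0.04996) also rose in oculomotor over spinal GFP-positive cells, where 0.353% of all genes did, in calls that held in 3 and 2 of 12 fits without 1 sample. Flrt3 was the one that passed between the spinal fractions, lower in GFP-positive cells by -2.86 ± 0.66 (adjusted p = 0.0256, against 0.83% of all genes called as lower). The Gfra1 step was larger in the oculomotor cultures by 2.19 ± 0.46 (adjusted p = 0.0315, against 0.262% of all genes called in that direction). With the within-culture block, 15 partners passed as higher and 2 as lower between the oculomotor fractions, where 8.22% and 8.21% of all genes did. Between the spinal fractions 3 passed as higher and 1 as lower (1.33% and 1.6% of all genes), and for the interaction 3 passed with a larger oculomotor step (0.852%). Evl, Fyn and Nell2 lost their oculomotor calls in 2, 5 and 3 of the 24 fits that left out 1 sample.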

How the data were processed

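The authors mapped the reads to GRCm38 (mm10) with HISAT2 2.0.3 and deposited RPKM per gene, and the authors' processing notes also name DESeq2 1.12.4. Libraries were made from lysed sorted cells by Smart-seq2 with Tn5 tagmentation. The table held 22889 entries for 24 samples, and depth was estimated from the RPKM steps of 5911 genes with a single GENCODE M21 transcript, where 1 read has a fixed worth: 752529 to 7675428 mapped reads, with 95.8% to 97.8% of low values within 2% of whole reads. Read numbers came out whole for 31 of the 38 members. They did not for Robo2, Unc5c, Epha5 and Slit2, so the reads behind the low values of these genes are not known. Epha6, Robo4 and Ntn5 had too few values above 0.

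Values were compared as log2(RPKM + 1) with limma 3.58.1 in R 4.3.3 (moderated variances with a trend, Benjamini-Hochberg adjustment, threshold 0.05) for genes above 0 RPKM in at least 2 samples. The offset of 1 understates changes of genes near or below 1 RPKM. The GFP-positive fractions were fitted on their 12 samples, and the other 4 comparisons on all 24 samples in 4 groups. Python 3.11.15 with pandas 2.3.3, numpy 2.4.6 and matplotlib 3.10.9 gave summaries and figures. The fits were tried on simulated data with independent values, without pairs of fractions or a shift between replicate sets. That trial therefore says nothing of how the fits handle these features. The design took the place of the count model that the study used, since RPKM are not counts.

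The labels do not say that replicates were separate cultures, so p values measure the spread between these samples. The main fits had no replicate block, so their p values between the fractions of a culture leave out any pairing. Only the alternative fit with the within-culture block treated same-numbered fractions of a culture as pairs. This pairing was taken from the data: in both cultures all 6 pairs had correlated deviations from their group means (0.38 to 0.73 in oculomotor and 0.42 to 0.66 in spinal cultures, over 11950 genes). A GFP-positive sample correlated best with the GFP-negative sample of its own number in 6 of 6 oculomotor and 5 of 6 spinal pairs. Across cultures the own number was best in 1 of 6 GFP-positive and 2 of 6 GFP-negative pairs, so the numbers did not pair (-0.17 to 0.71 and -0.04 to 0.61). Replicates 5 and 6 still correlated at 0.57 to 0.71 there, so a positive correlation alone does not show a pair.

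Members with an adjusted p under 0.05 or without overlap, the member of highest mean in each family and group, and Epha3 are given by their values in groups compared and at least 1 test, with further members by range. The membership rule reads symbols, but these gene families, and so the members, the lists and the tests, were chosen with earlier results of these data known. Alternatives changed the offset, filter, scaling, weights, samples and block. Promoter windows came from RefSeq (GRCm38.p6), and protein sequences were not used here.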

Additional observations from a re-analysis of the deposited data

Results flagged for a closer look

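A sample far from the other 5 of its group, by the gap to its nearest neighbour over the range of the group, was found in 5 of 40 groups of values examined. Chance flags about 1 in 20 groups. Epha10 stood at 0.412 RPKM in oculomotor GFP-negative replicate 4, above the others, from 4 reads. Robo1 stood at 1.55 RPKM in oculomotor GFP-positive replicate 3, below the others. Unc5b stood at 1.74 RPKM in oculomotor GFP-positive replicate 2, above the others. Unc5d stood high in oculomotor GFP-positive replicate 4, at 3.99 RPKM, and in spinal GFP-negative replicate 5, at 1.89 RPKM.

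The effect of the fraction differed between the cultures for Unc5c, whose step was 1.53 larger (log2) in the oculomotor cultures (limma interaction, adjusted p = 0.0465). Over fits that left out 1 sample the adjusted p ran from 0.0139 to 0.0911.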

How the results depend on the processing

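Directions were followed for the differences that were called or lay between groups without overlap, and none of these reversed. Where groups do not overlap, leaving out samples cannot reverse the direction. For those differences the kept direction is therefore no separate support, and nothing is said of the other members. The 6 members called between the oculomotor fractions became 12 with sample quality weights, 11 in a fit of that culture alone and 3 in replicates 1 to 4 only (Robo2, Unc5b and Unc5c), and 4 to 8 when 1 sample was left out, with 4 without GFP-positive replicate 4. With a replicate block within cultures they became 14, and with a replicate block across cultures 10. Calls over all genes moved too, from 6.15% in the main fit to 16.4% with the within-culture block between the oculomotor fractions. The shares of all genes in the other settings are not given here, so these changes in count are not particular to the members. Between the spinal fractions the 0 became 1 with the within-culture replicate block and 1 without the 3 doubted spinal samples, and 0 to 2 when 1 sample was left out, with 2 (Slit2 and Robo1) without GFP-positive replicate 4. For the interaction the 1 became 2 with the within-culture replicate block, 2 with weights, 0 with an offset of 0.1 RPKM, 0 in replicates 1 to 4 only, and 0 to 2 when 1 sample was left out. The call stayed when oculomotor GFP-positive replicate 1 or 6, spinal GFP-positive replicate 3 or 6, or spinal GFP-negative replicate 4 was left out.

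Between the GFP-positive fractions the 0 became 1 with the offset of 0.1 RPKM, with rescaling by medians of ratios or with the replicate set as a term, and 2 with a filter of 1 RPKM in at least 6 samples, with weights, with all 24 samples in the fit or without the doubted spinal samples. Leaving out 1 sample gave 0 to 2, with 2 without spinal GFP-positive replicate 3 or 4. Between the GFP-negative fractions the 0 became 1 with the replicate block across cultures, 1 without the doubted samples, 1 with the set as a term and 2 with weights. Leaving out 1 sample gave 0 to 1, with Epha3 without spinal GFP-negative replicate 4. The fit without those 3 samples and the set term were chosen after seeing the data, and the causes of these changes were not tested. Low depth limits members near 0 RPKM, where a few reads set the value.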
